A study of Mus musculus with 6 samples.

Results

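Hox genes of the mouse were followed in sorted Id4-GFP cells of Dnmt3A KO/KO and Dnmt3A WT/WT males. They are the rows of the count files whose gene name is Hox, a letter from a to d and digits only, 39 of the 54087 gene rows, a rule that uses names and not levels. Of these, 38 are described. RNA came from bright and medium Id4-GFP cells, a sorting gate that the labels equate roughly with spermatogonial stem cells, of male C57BL/6 mice at 10 days post partum. There were 3 Dnmt3A KO/KO and 3 Dnmt3A WT/WT samples, all carrying the Id4-GFP reporter, which marks cells expressing the stem cell regulator Id4. Which part of Dnmt3a the KO/KO allele lacks, in which cells it was lost, and whether a sample is 1 animal or a pool are not stated in the labels. The p-values therefore cover only the spread among these samples, which may be technical. Dnmt3A is an enzyme that adds new methyl groups to DNA, and the comparison asks how Hox transcript levels differ between KO/KO and WT/WT.

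Hox genes encode homeodomain transcription factors that give cells their position along the head-to-tail axis of the embryo. They lie in 4 clusters, and within a cluster the order of the genes matches the order of their expression along the axis: paralog groups 1 to 3 act in the hindbrain and neck (anterior), 4 to 8 in the trunk (central) and 9 to 13 in the lower trunk, limbs and tail (posterior). Outside their domains they are held silent by Polycomb complexes, and their promoters are rich in CpG, the dinucleotide that DNA methyltransferases modify. HOX proteins bind DNA together with TALE homeodomain partners such as PBX and MEIS.

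Gene rows summed to 43951664 to 61749155 counts per KO/KO library and 42681201 to 48423509 per WT/WT library, so that 3 counts, the upper limit that a count of 0 allows, correspond to between 0.0465 and 0.0735 CPM (counts scaled by the library's gene total and TMM factor). This limit covers counting error only. Dnmt3a stood at 90.2, 104 and 99.5 CPM in the KO/KO libraries and at 215, 193 and 188 CPM in the WT/WT libraries (log2 fold change -1.02, SE 0.09, edgeR adjusted p = 0.000222). Libraries of 1 genotype differed from each other by a chi-square per degree of freedom of 40.4 to 54.5 in KO/KO and 13.5 to 16.2 in WT/WT, and KO/KO replicate 1 lay at 38.4 to 39.3 from the WT/WT libraries, no farther than from the other KO/KO libraries. Over the whole fit of 21314 genes, 8.33% were called higher and 6.42% lower in KO/KO.

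Hox transcripts were scarce in both genotypes and more abundant in KO/KO. The 38 genes together took 2843, 2139 and 3858 counts in the KO/KO libraries, against 1285, 1365 and 1425 in the WT/WT libraries. This made 55.6 ± 10.7 CPM in KO/KO and 30.9 ± 3.55 CPM in WT/WT (SD, n = 3 each), a ratio of 1.80, and every KO/KO library lay above every WT/WT library. The smallest p an exact permutation test of 3 against 3 can give is 0.1, so no test was made of sums. These are bulk samples, in which fewer cells of a type and less RNA per cell cannot be told apart. Only 2 of the Hox genes tested reached the median level of all genes tested, 5.89 CPM.

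Of the 38 genes, 20 passed the filter on low counts and 18 did not. Among the 20, 7 rose in KO/KO, against a background share of 8.33%, and the other 13 did not pass the test. Of these 13, Hoxc6 was higher and Hoxa3 lower at an unadjusted p under 0.05. None of the 20 was called lower by edgeR, DESeq2 or limma-voom, against 6.42% of all genes in edgeR. The libraries of the genotypes did not overlap in 8 of the 20 with KO/KO above WT/WT and in 1 with KO/KO below, against 18.2% and 17.5% of all genes tested. The median log2 fold change was 0.70 over the 20 Hox genes and 0.0028 over all genes tested. Hoxc6, Hoxc8 and Hoxc10 passed the filter through the KO/KO libraries alone, so these 3 had to differ. All 3 are among the 8 without overlap and KO/KO above. The counts and the median therefore describe the genes that passed, not the family. With these genes left out, 5 of 17 tested genes were higher and 0 lower, with a median log2 fold change of 0.54.

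**Figure D1:**
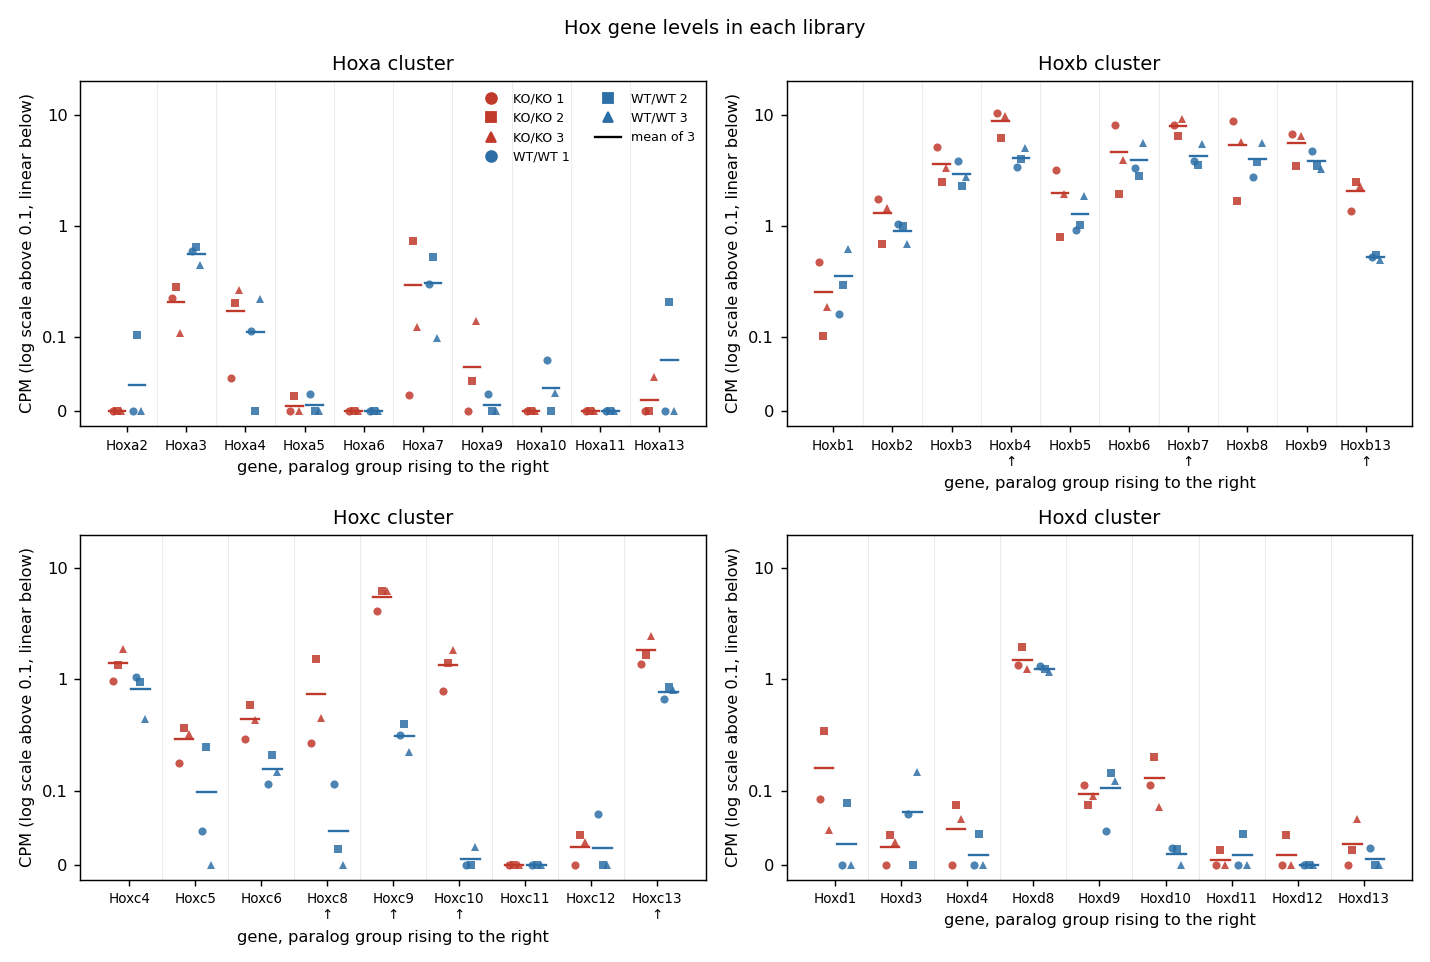
CPM of each Hox gene (vertical axis, logarithmic above 0.1 and linear below) in each cluster, with genes ordered by paralog group. Points are libraries, KO/KO in red left of WT/WT in blue, lines are means of 3 libraries, and arrows under the gene names mark called genes: 4 of 9 Hoxc genes and 3 of 10 Hoxb genes were higher in KO/KO.

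All 7 calls lay in the Hoxc and Hoxb clusters. The Hoxc cluster (chromosome 15, positions 102921103 to 103036852, GRCm38) had 4 rises among 7 tested genes and the Hoxb cluster (chromosome 11, 96194316 to 96368256) 3 among 10. The genes described of the Hoxa cluster (chromosome 6, 52162417 to 52260880) had no call among 2 tested, and the Hoxd cluster (chromosome 2, 74668310 to 74765142) had no call on its single tested gene. Median log2 fold changes of tested genes were 1.49 in Hoxc and 0.53 in Hoxb. By position, 4 of 5 tested posterior genes and 3 of 11 tested central genes rose, with medians of 1.97 and 0.77. None of 4 tested anterior genes was called, with a median of -0.10. Without Hoxc6, Hoxc8 and Hoxc10, which had to differ to be tested, 2 of 4 Hoxc genes, 3 of 4 posterior genes and 2 of 9 central genes rose, with medians of 1.37, 1.61 and 0.63. Whether the clusters or positions differ from each other was not tested.

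Hoxc9 had the largest rise among Hox genes with counts in every library. This gene, which sets thoracic identity of motor neurons, lies at 102976439 to 102985099 on chromosome 15. It had 184, 306 and 404 counts in the KO/KO libraries and 14, 19 and 9 counts in the WT/WT libraries. The lowest KO/KO level was 4.11 CPM and the highest WT/WT level 0.395 CPM. Means were 5.53 ± 1.23 CPM in KO/KO and 0.312 ± 0.0873 CPM in WT/WT (SD, n = 3 each), a log2 fold change of 4.13 (SE 0.31, edgeR adjusted p = 0.000143). The call held in all 14 alternative fits.

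Its neighbours on both sides rose with it. Hoxc10, a gene of lumbar and hindlimb identity at 102966796 to 102971893, had 35, 70 and 119 counts in the KO/KO libraries and 0, 0 and 1 count in the WT/WT libraries. With 224 counts against 1 the KO/KO level was 188 times that of WT/WT, with a 95% exact interval from 33.3 to 7439 that covers counting error only, and edgeR gave an adjusted p of 0.000737. Hoxc10 was thus at 0.782 to 1.85 CPM in KO/KO and near 0 in WT/WT. In the annotation 8.7% of its exon bases are shared with a long transcript of Hoxc5 on the same strand, which had at most 21 counts in any library. Hoxc8, which patterns the thoracic skeleton and brachial motor neurons (102990607 to 102994111), had 12, 75 and 29 counts in the KO/KO libraries against 5, 1 and 0 in the WT/WT libraries, a log2 fold change of 3.97 (SE 0.99, edgeR adjusted p = 0.0254). KO/KO replicate 2 stood apart with 1.52 CPM, against 0.268 and 0.450 CPM in the other KO/KO libraries, and without it the log2 fold change was 2.94 (adjusted p = 0.0739). That call was also lost without WT/WT replicate 2 (0.113) or 3 (0.0882), and over 13 alternatives its adjusted p ran from 4.72e-06 to 0.113.

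Hoxc13, at the posterior end of the cluster and known for its part in hair and nail formation, was present in every library (102921103 to 102928814). It had 62, 81 and 159 counts in KO/KO and 29, 41 and 33 counts in WT/WT. In CPM this was 1.39, 1.64 and 2.47 in KO/KO and 0.662, 0.851 and 0.809 in WT/WT, with no overlap, and the log2 fold change was 1.24 (SE 0.32, edgeR adjusted p = 0.0292). The call was lost when KO/KO replicate 3 (0.0778) or any WT/WT replicate was left out (0.107, 0.0900 and 0.0875 for replicates 1, 2 and 3), in a range from 0.00804 to 0.107 over 14 alternatives. Between Hoxc13 and Hoxc10 the cluster had almost no counts in either genotype. Hoxc11 had no count in any library, which allows at most 0.0465 to 0.0735 CPM in each, and Hoxc12 had 0, 2 and 2 counts in KO/KO and 3, 0 and 0 in WT/WT.

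Hoxc6, Hoxc5 and Hoxc4, the central genes with the lowest paralog groups in the Hoxc cluster, gave no call. Hoxc6 had 13, 29 and 28 counts in KO/KO and 5, 10 and 6 in WT/WT, without overlap in CPM, but a log2 fold change of 1.47 with an SE of 0.53 missed the threshold (edgeR adjusted p = 0.0969). Hoxc5 had 8, 18 and 21 counts in KO/KO and 2, 12 and 0 in WT/WT (log2 fold change 1.49, SE 0.89, adjusted p = 0.298), and its log2 fold change ran from 0.95 without WT/WT replicate 3 to 3.49 without WT/WT replicate 2. Hoxc4, the most anterior gene of the cluster, had 43, 67 and 120 counts in KO/KO and 46, 46 and 18 in WT/WT, with overlapping levels (log2 fold change 0.77, SE 0.40, adjusted p = 0.234). Log2 fold changes along the cluster thus read 1.24 for Hoxc13, 4.13 for Hoxc9, 3.97 for Hoxc8, 1.47 for Hoxc6, 1.49 for Hoxc5 and 0.77 for Hoxc4, with Hoxc10 at its counts above. Summed over its 9 genes the Hoxc cluster held 7.98, 13.1 and 13.7 CPM in the KO/KO libraries and 2.37, 2.68 and 1.64 CPM in the WT/WT libraries, a ratio of 5.20. Its share of all Hox transcripts was 20.9% in KO/KO and 7.23% in WT/WT.

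**Figure D2:**
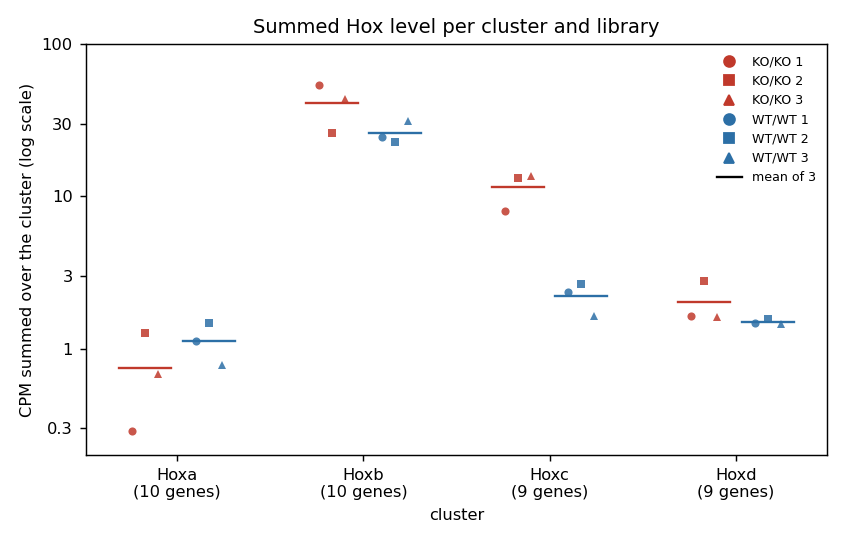
CPM summed over the genes of each cluster (vertical axis, logarithmic) in each library, KO/KO in red left of WT/WT in blue, lines at the mean of 3 libraries. The Hoxc libraries of the genotypes lie farthest apart, with a ratio of 5.20, and the Hoxa libraries overlap, with a ratio of 0.666.

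The Hoxb cluster supplied most Hox transcripts in both genotypes, 74.2% in KO/KO and 84.3% in WT/WT, and all 10 of its genes were measurable. Hoxb13, which lies apart at the posterior end of the cluster (96194316 to 96197447) and acts in the tail and the prostate, had 61, 121 and 147 counts in KO/KO and 23, 26 and 20 in WT/WT. The KO/KO libraries stood at 1.36, 2.45 and 2.28 CPM, and the WT/WT libraries lay close together at 0.525, 0.540 and 0.490 CPM. Its log2 fold change was 1.97 (SE 0.33, edgeR adjusted p = 0.00434), and the call held in all 14 alternatives.

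Hoxb4, a gene known for expanding blood stem cells, and Hoxb7, a central gene of the trunk, rose by less. Hoxb4 (96318267 to 96321638) had 10.4, 6.12 and 9.61 CPM in KO/KO and 3.38, 3.99 and 4.95 CPM in WT/WT, a log2 fold change of 1.09 (SE 0.24, edgeR adjusted p = 0.0149). Hoxb7 (96286623 to 96290162) had 7.998, 6.47 and 9.13 CPM in KO/KO and 3.83, 3.55 and 5.42 CPM in WT/WT, a log2 fold change of 0.88 (SE 0.22, edgeR adjusted p = 0.0242). For both genes every KO/KO library was above every WT/WT library. The call of Hoxb4 was lost without WT/WT replicate 1 (0.0658) or 2 (0.0717), with adjusted p from 2.36e-05 to 0.0717 over 14 alternatives. That of Hoxb7 was lost when KO/KO replicate 3 (0.0557), WT/WT replicate 1 (0.0956) or WT/WT replicate 2 (0.119) was left out, with adjusted p from 0.00115 to 0.119.

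Of the 7 called genes, Hoxb4 was the only one with an entry among the RefSeq promoters used here, which matched 22 Hox genes. Its promoter is shown because Dnmt3A acts on CpG, beside that of Hoxb8. That gene of the same cluster, with Hoxb5, Hoxb6 and Hoxb7 lying between, did not pass the test. The 250 bases before each start site are given on the plus strand, with every CpG in capitals (RefSeq, GRCm38.p6), for Hoxb4 at chr11:96318017-96318266 and for Hoxb8 at chr11:96281655-96281904.
Hoxb4: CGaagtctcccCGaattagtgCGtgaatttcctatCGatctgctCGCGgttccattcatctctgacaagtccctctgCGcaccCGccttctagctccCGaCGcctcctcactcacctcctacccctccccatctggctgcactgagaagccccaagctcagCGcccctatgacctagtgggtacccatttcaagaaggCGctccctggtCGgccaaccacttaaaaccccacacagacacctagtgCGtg
Hoxb8: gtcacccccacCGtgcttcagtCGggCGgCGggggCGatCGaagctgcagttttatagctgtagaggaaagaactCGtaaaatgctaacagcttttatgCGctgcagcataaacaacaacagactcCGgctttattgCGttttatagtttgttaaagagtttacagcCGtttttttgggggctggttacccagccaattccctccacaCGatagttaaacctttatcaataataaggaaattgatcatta

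The Hoxb4 window holds 14 CpG and the Hoxb8 window 12. As many or more are found in 29.4% and 33.5% of the 32851 mouse promoters of the same length. Over the 22 Hox promoters the number of CpG ran from 2 to 35 with a median of 12, against a median of 6 over all promoters. For 18 of the 22, Hoxb4 and Hoxb8 among them, the listed start lay within 300 bases of the gene's start in GENCODE, with a median of 13 CpG. The other 4 windows, those of Hoxa7, Hoxa9, Hoxc4 and Hoxd4, lay 3281 to 15461 bases from it. The letters CCAAT, the core of the site bound by the factor NF-Y, read on either strand, occurred in 13 of the 22 Hox windows and in 33.8% of all, once in the Hoxb8 window and not in that of Hoxb4. The letters CACGTG occurred in 3 of the 22 and in 6.0% of all, and in neither printed window. DNA methylation was not measured in these libraries.

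The other 7 Hoxb genes did not pass the test, and their KO/KO libraries disagreed. Hoxb8 had 8.80, 1.66 and 5.66 CPM in KO/KO and 2.72, 3.72 and 5.49 CPM in WT/WT. Hoxb6 had 7.98, 1.93 and 3.86 CPM in KO/KO and 3.33, 2.80 and 5.54 CPM in WT/WT, and Hoxb5 3.15, 0.790 and 1.92 CPM in KO/KO and 0.913, 1.02 and 1.86 CPM in WT/WT. In these 3 genes and in Hoxb1 KO/KO replicate 2 was below every WT/WT library. It was the lowest KO/KO library for 9 of the 10 Hoxb genes, all but Hoxb13. KO/KO replicates 1 and 3 were both above every WT/WT library for 7 of the 10, among them Hoxb2, Hoxb5, Hoxb8 and Hoxb9, which were not called. Log2 fold changes ran from 0.63 (SE 0.48) for Hoxb5, 0.54 (SE 0.27) for Hoxb9, 0.51 (SE 0.39) for Hoxb2, 0.43 (SE 0.49) for Hoxb8, 0.30 (SE 0.30) for Hoxb3 and 0.24 (SE 0.45) for Hoxb6 down to -0.50 (SE 0.70) for Hoxb1. Without KO/KO replicate 2, Hoxb9 was called as well (log2 fold change 0.79, adjusted p = 0.0354). Hoxb3 and Hoxb2 share 52.9% and 27.3% of their exon bases with Hoxb3os, which runs the other way, and no label states whether reads were counted by strand.

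**Figure D3:**
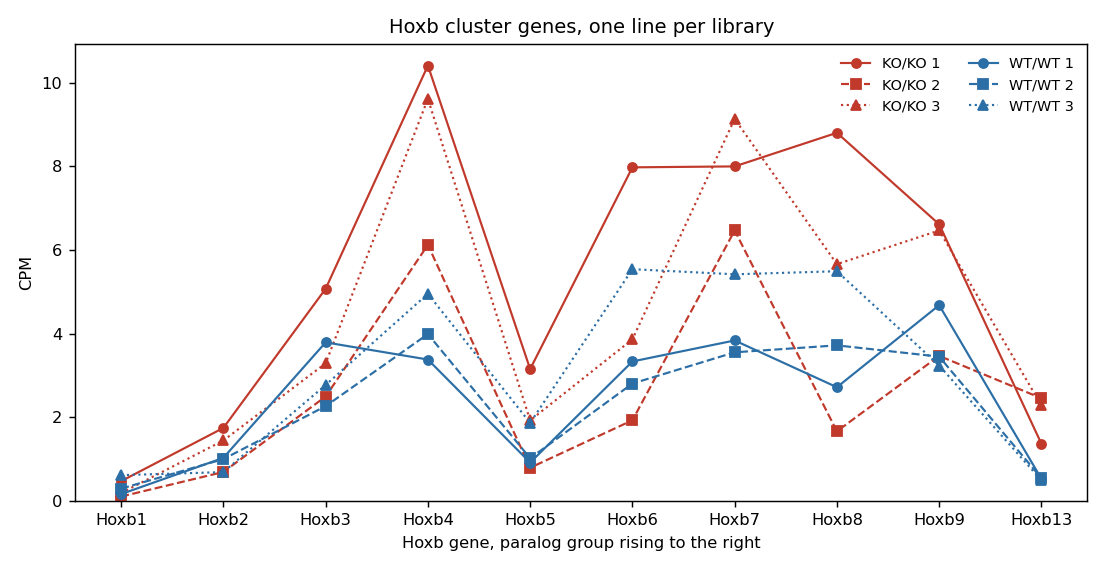
CPM (vertical axis, linear) of the 10 Hoxb genes ordered by paralog group, with a line for each library, KO/KO in red and WT/WT in blue. KO/KO replicate 2 (dashed red) is the lowest KO/KO library at every gene except Hoxb13, while at Hoxb4, Hoxb7 and Hoxb13 all 3 KO/KO libraries lie above the WT/WT libraries.

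The Hoxb cluster as a whole held 53.6, 26.2 and 43.9 CPM in the KO/KO libraries and 24.4, 22.6 and 31.1 CPM in the WT/WT libraries. KO/KO replicate 2 lay within the range of WT/WT, so the cluster sums overlapped, with means of 41.2 ± 13.9 CPM in KO/KO and 26.0 ± 4.46 CPM in WT/WT (SD, n = 3 each). The Hoxc sums showed no such order, since KO/KO replicate 2 there was close to KO/KO replicate 3.

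The Hoxa cluster gave little transcript. Hoxa3, which is needed for thymus and parathyroid formation, had 10, 14 and 7 counts in KO/KO and 26, 31 and 18 in WT/WT. The CPM values did not overlap, but the log2 fold change of -1.46 (SE 0.51) missed the threshold (edgeR adjusted p = 0.0877), and 25.4% of its exon bases lie under transcripts of the opposite strand. Hoxa7 varied among libraries of the same genotype, with 1, 36 and 8 counts in KO/KO and 13, 25 and 4 in WT/WT (log2 fold change -0.08, SE 0.95). Summed over the 10 genes described, the cluster held 0.290, 1.28 and 0.682 CPM in KO/KO and 1.12, 1.47 and 0.784 CPM in WT/WT, with overlap and a ratio of 0.666. These were 1.35% of the Hox transcripts described in KO/KO and 3.65% in WT/WT.

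The remaining Hoxa genes were below the filter, and raw counts are all that can be given. Hoxa4 had 2, 10 and 17 counts in KO/KO and 5, 0 and 9 in WT/WT. Hoxa9 had 0, 2 and 9 counts in KO/KO and 1, 0 and 0 in WT/WT. Hoxa13 had 0, 0 and 3 counts in KO/KO and 0, 10 and 0 in WT/WT, and Hoxa2 had none in KO/KO and 0, 5 and 0 in WT/WT. Those 4 rows rest on 1 or 2 libraries each for most of their counts. Hoxa10 had none in KO/KO and 3, 0 and 1 in WT/WT, Hoxa5 had 1 count in each genotype, and Hoxa6 and Hoxa11 had none in any library.

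The Hoxd cluster had few counts apart from Hoxd8, and no call was made in it. Hoxd8, a central gene of the trunk, had 60, 96 and 80 counts in KO/KO and 58, 60 and 48 in WT/WT, with overlapping CPM and a log2 fold change of 0.27 (SE 0.29, edgeR adjusted p = 0.582). Hoxd10, which patterns the hindlimb and its motor neurons, was the only untested Hox gene whose libraries did not overlap, with 5, 10 and 5 counts in KO/KO and 1, 1 and 0 in WT/WT. The ratio was 8.37 with a 95% exact interval from 2.03 to 73.9, and in a fit without a filter its edgeR adjusted p was 0.276, the lowest of the 15 untested Hox genes that could be fitted. Hoxd1 had 4, 17 and 3 counts in KO/KO and 0, 4 and 0 in WT/WT, and Hoxd9 5, 4 and 6 in KO/KO and 2, 7 and 5 in WT/WT. Hoxd3, Hoxd4, Hoxd11, Hoxd12 and Hoxd13 had at most 6 counts in any library. In the annotation 62.3% of the exon bases of Hoxd3 and 52.3% of those of Hoxd4 are shared with same-strand genes, each other included. How reads from shared bases were counted is not stated, so the low counts of Hoxd3 and Hoxd4 may understate their levels. Of the 18 untested Hox genes, 3 had no count at all, none of the other 15 had an unadjusted p under 0.05 without a filter, and none exceeded 17 counts in a library. Summed over 9 genes, the Hoxd cluster held 1.65, 2.78 and 1.61 CPM in KO/KO and 1.48, 1.58 and 1.45 CPM in WT/WT.

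**Figure D4:**
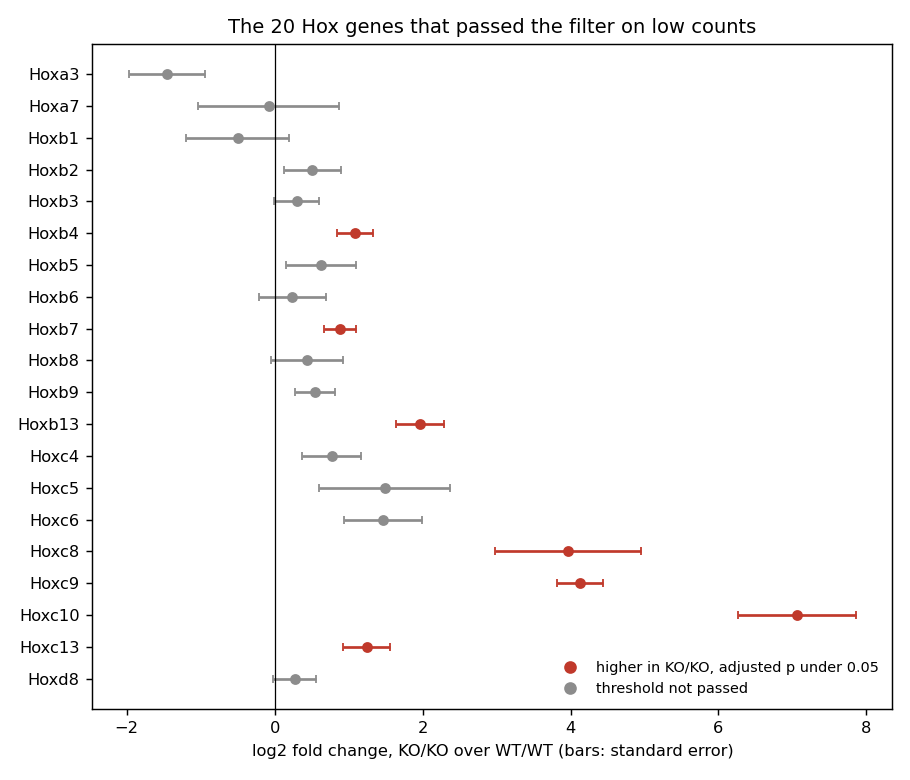
Log2 fold change of KO/KO over WT/WT (horizontal axis) for the 20 Hox genes that passed the filter, in cluster and paralog order, with bars for the standard error; colours mark genes higher or not past the threshold. The value of Hoxc10 is fitted against a group with 1 count in all and depends on the prior count of the fit. The 7 higher genes lie in the Hoxb and Hoxc clusters, from 0.88 for Hoxb7 upward.

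Per kilobase of exon, Hoxb genes held the highest Hox levels in both genotypes, and Hoxc9 stood among them in KO/KO. Hoxb7 led in both genotypes, with 5.09 ± 0.867 CPM per kb in KO/KO and 2.76 ± 0.651 CPM per kb in WT/WT (SD, n = 3 each). In KO/KO it was followed by Hoxb4 at 3.40 ± 0.889, Hoxb6 at 2.34 ± 1.57, Hoxc9 at 2.27 ± 0.504, Hoxb9 at 2.14 ± 0.690 and Hoxb8 at 2.04 ± 1.36 CPM per kb, of which the last 4 lie within each other's spread. In WT/WT it was followed by Hoxb6 at 1.98 ± 0.739, Hoxb4 at 1.60 ± 0.309, Hoxb8 at 1.51 ± 0.533 and Hoxb9 at 1.47 ± 0.303 CPM per kb, neighbours that do not differ beyond their spread. Among the genes described Hoxc9 had rank 4 in KO/KO and 14 in WT/WT, where it stood at 0.128 ± 0.0359 CPM per kb.

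Transcripts embedded in the clusters were mostly undetected. Of 46 annotated genes inside the clusters that are no Hox coding gene, 33 had a row, 3 passed the filter and 1 rose, too few to set against the 8.33% of all genes called higher. Gm27605, a structured noncoding RNA on the strand opposite to Hoxb13 and just beyond it (chromosome 11, 96200176 to 96200311), had 51, 105 and 119 counts in KO/KO and 15, 9 and 4 in WT/WT, a log2 fold change of 3.01 (SE 0.47, edgeR adjusted p = 0.00327). Its neighbour Gm27898 had 3, 17 and 9 counts in KO/KO and 0, 1 and 0 in WT/WT, too few to be tested. Hoxb13 and both of these rows were thus higher in every KO/KO library. The miRNA host row Mir196a-1, from which a regulator of Hoxb8 mRNA is made, had 17, 5 and 19 counts in KO/KO and 30, 12 and 12 in WT/WT (log2 fold change -0.66, adjusted p = 0.533). Hoxb3os had 83, 38 and 76 counts in KO/KO and 31, 68 and 71 in WT/WT (log2 fold change -0.02, adjusted p = 0.978).

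The genes around the clusters were called about as often as genes in general. Of the 4 nearest protein-coding genes on either side of each cluster, 32 in all, 28 were tested, and 1 rose and 3 fell, against 14.8% of all genes called in either direction. Skap2, an adaptor protein gene beside the Hoxa cluster, rose to 27.7 ± 1.36 CPM in KO/KO, against 19.8 ± 0.323 CPM in WT/WT (log2 fold change 0.49, SE 0.10, adjusted p = 0.0125). The heterochromatin protein genes Cbx3 and Cbx1 fell by 0.45 (SE 0.13, adjusted p = 0.0425) and 0.37 (SE 0.11, adjusted p = 0.0453) on the log2 scale, and the stress response factor gene Nfe2l1 fell by 0.32 (SE 0.08, adjusted p = 0.0195). All 4 calls were lost whenever a WT/WT library was left out. At an unadjusted edgeR p under 0.05, Nfe2 (log2 fold change 1.94) and Calcoco1 (0.37), both beside Hoxc, were also higher. At that level Mtx2 (-0.27), Hnrnpa3 (-0.23) and Agps (-0.22), all beside Hoxd, were lower. None of these uncalled genes overlapped between the genotypes, and Nfe2 had 15, 26 and 20 counts in KO/KO and 7, 1 and 5 in WT/WT. The Evx genes, homeobox genes at the posterior ends of Hoxa and Hoxd, were silent, with no count in KO/KO and at most 2 counts of Evx1 and 1 of Evx2 in a WT/WT library.

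Among TALE homeodomain genes, which include the DNA-binding partners of HOX proteins, 1 of 9 tested rose and none fell in edgeR. This is close to the 8.33% and 6.42% of all genes. The rise was that of Tgif1, and no tested Pbx, Meis or Pknox gene was called. At an unadjusted p under 0.05, Pbx3 was also higher (log2 fold change 0.45, SE 0.15, adjusted p = 0.0778), with every KO/KO library above every WT/WT library, and Tgif2 was lower (-0.29, SE 0.12, adjusted p = 0.135), with overlap. Tgif1, a TALE repressor also known for damping TGF-beta signalling, rose to 34.5 ± 4.06 CPM in KO/KO, against 15.9 ± 1.49 CPM in WT/WT (SD, n = 3 each; log2 fold change 1.12, SE 0.13, edgeR adjusted p = 0.000744), and kept its call in 14 of 14 alternatives. The other 8 did not pass, among them Meis1 at 5.11 ± 1.11 CPM in KO/KO and 4.61 ± 1.03 CPM in WT/WT. The median log2 fold change of this list was 0.0012.

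Most homeobox genes that act upstream of the Hox clusters or lie in related clusters were too scarce to test. Of 13 Cdx, ParaHox, Evx and linked genes 3 were tested, and none was called by edgeR or had an unadjusted p under 0.05. The midbrain gene En1 stood at 6.92 ± 2.55 CPM in KO/KO and 4.63 ± 1.95 CPM in WT/WT, and Gbx2 at 1.33 ± 0.338 CPM in KO/KO and 0.867 ± 0.0155 CPM in WT/WT (adjusted p = 0.282 and 0.225). The hindbrain factor Egr2, which switches on Hoxa2 and Hoxb2 in the embryo, had 73.4 ± 21.8 CPM in KO/KO and 43.1 ± 2.90 CPM in WT/WT (log2 fold change 0.77, SE 0.19, adjusted p = 0.0236), a call lost whenever a WT/WT library was left out.

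Polycomb and trithorax genes, which keep Hox genes silent or active, moved in both directions by small amounts. Of this list 26 genes were tested, with 3 rises and 3 falls, against 14.8% of all genes called, and a median log2 fold change of -0.03. Cbx2, a chromodomain subunit of Polycomb repressive complex PRC1, fell to 45.3 ± 7.94 CPM in KO/KO, against 71.6 ± 3.96 CPM in WT/WT (adjusted p = 0.00780, log2 fold change -0.66), and its call held in all 14 alternatives. The PRC1 subunits Pcgf2 and Phc3 fell by 0.37 and 0.36 on the log2 scale (adjusted p = 0.0412 and 0.0404). The PRC1 subunits Phc1 and Phc2 rose by 0.38 and 0.32, and the trithorax methyltransferase Kmt2a, which maintains Hox expression, rose by 0.28 (adjusted p = 0.0275, 0.0313 and 0.0200). The calls of Pcgf2, Phc1, Phc2, Phc3 and Kmt2a were lost whenever a WT/WT library was left out. That of Pcgf2 was lost in 8 of 14 alternatives, among them upper quartile factors (adjusted p = 0.0531) and no filter (0.0692). The other 20 did not pass the test, among them Ezh2, Eed and Suz12 of PRC2, the complex that sets the Polycomb histone mark. At an unadjusted edgeR p under 0.05, Eed (log2 fold change -0.25), Suz12 (-0.19) and Men1 (-0.25) were lower, without overlap. Kat6a (0.35), Bmi1 (0.36), Phf19 (0.60) and Rnf2 (0.20) were higher at that level, with overlap for Phf19 only. Kat6a, Bmi1 and Phf19 were called higher in the edgeR fit without a filter.

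Some markers of other cells of the testis also differed between the genotypes. The counts of calls below stand beside 8.33% of all genes tested called higher and 6.42% called lower. Germ cell markers summed to 1697 to 1940 CPM over 8 genes in KO/KO and 1740 to 1881 CPM in WT/WT. Id4 and Gfra1 were called higher and Zbtb16 and Sall4 lower in KO/KO. Id4, whose reporter set the sorting gate, had 141 ± 47.3 CPM in KO/KO and 37.8 ± 0.780 CPM in WT/WT. Its log2 fold change was 1.89 (edgeR adjusted p = 0.000814). At an unadjusted p under 0.05, Utf1 (-1.08) and Dazl (-0.30) were lower and Ddx4 (0.24) higher, with overlap for Dazl only. Lin28a (-0.35) overlapped. Dazl, Lin28a and Utf1 were called lower in the edgeR fit without a filter. Endothelial markers summed to 125 to 165 CPM in KO/KO and 37.9 to 44.0 CPM in WT/WT, and 5 of the 7 tested of 8 rose (Cdh5, Kdr, Flt1, Vwf and Sox18). Pecam1 (log2 fold change 0.16, edgeR adjusted p = 0.754) and Tek (-0.18, adjusted p = 0.635) did not pass and overlapped. Emcn had 1, 0 and 0 counts in KO/KO and 6, 3 and 0 in WT/WT. Interstitial stroma markers summed to 43.3 to 65.2 CPM in KO/KO and 85.3 to 118 CPM in WT/WT. Of these, 2 of the 7 tested of 8 fell (Col1a1 and Pdgfra), with Lum at 0 to 8 counts. Col1a1 alone stood at 30.9, 19.0 and 23.0 CPM in KO/KO and 72.7, 71.8 and 54.4 CPM in WT/WT. The 5 not called overlapped, with log2 fold changes from -0.13 for Col1a2 to -0.36 for Tcf21 (edgeR adjusted p from 0.586 to 0.828). Myoid markers summed to 40.9 to 48.1 CPM in KO/KO and 24.6 to 37.9 CPM in WT/WT, with Smtn the only rise among 5 tested of 6. The other 4 tested had negative log2 fold changes, from -0.08 for Tagln to -1.37 for Des. Des did not overlap and had an unadjusted edgeR p of 0.0167 (adjusted p = 0.0846). In the edgeR fit without a filter Des and Myh11 were called lower (adjusted p = 0.00917 and 0.0203). Without Smtn the myoid sums overlapped, at 8.31 to 11.9 CPM in KO/KO and 5.83 to 19.3 CPM in WT/WT. Macrophage markers summed to 4.28 to 5.26 CPM in KO/KO and 1.80 to 2.48 CPM in WT/WT, with Cd68 the only rise among 3 tested of 6. Cd68 made up most of these sums, with 3.93, 3.51 and 4.78 CPM in KO/KO and 1.21, 1.45 and 1.76 CPM in WT/WT. Ptprc (log2 fold change -1.01, edgeR adjusted p = 0.462) and Cd14 (0.34, adjusted p = 0.650) overlapped. Adgre1 was at 0 in every KO/KO library, and Csf1r and Lyz2 were at 0 to 4 counts. Sertoli markers overlapped, at 451 to 652 CPM in KO/KO and 434 to 661 CPM in WT/WT, with no call among 10; the most abundant were Clu at 241 ± 53.9 CPM in KO/KO and 256 ± 63.4 CPM in WT/WT and Sox9 at 74.1 ± 12.9 CPM in KO/KO and 89.3 ± 25.5 CPM in WT/WT (SD, n = 3 each). Leydig sums also overlapped, at 3.57 to 7.24 CPM in KO/KO and 6.58 to 16.0 CPM in WT/WT, with no call among 3 tested of 6, of which Star had 238, 144 and 254 counts in KO/KO and 235, 208 and 253 in WT/WT. None of the 10 Sertoli and 3 Leydig genes tested had an unadjusted p under 0.05 in the edgeR fit with the filter. In the edgeR fit without a filter 3 Leydig genes were called lower, Cyp17a1 with 8, 3 and 3 counts in KO/KO and 8, 17 and 103 in WT/WT (adjusted p = 1.45e-06), Cyp11a1 (0.0145) and Hsd3b1 (0.0157), and no Sertoli gene was called. The part of these cells in the Hox differences was not tested.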

How the data were processed

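RNA of 3 KO/KO and 3 WT/WT samples was made into stranded total RNA libraries, per the labels' protocols. The deposited values are raw counts per feature, which the authors made from STAR 2.7.0a alignments to mm10 using featureCounts 1.5.1, per the submitters' processing notes. They name no annotation release, strand setting or treatment of multi-mapping reads. Each file has 55292 rows, of which 1205 transposable element rows were left out of totals and fits.

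Gene counts were tested with edgeR 4.0.16 in R 4.3.3 (quasi-likelihood F test, two-sided, TMM factors, filterByExpr with a minimum count of 10, here 0.214 CPM, genotype as the only term, Benjamini-Hochberg adjustment over 21314 genes, threshold 0.05). Standard errors are the fold change's size over the square root of F. Intervals of count ratios are exact at 95% and, like the floor of 3 counts, cover counting error only. The fit was tested on simulated data. Other fits used RLE or upper quartile factors, no filter, 1 CPM in 3 libraries, transposable element rows kept, replicate block, DESeq2 1.42.0, limma-voom (limma 3.58.1) and leaving out each library.

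Of the 39 Hox genes 38 are described, and 1, with some members of the other lists, is not reported here; sums, counts and medians leave it out. The described Hox genes are named; of the other lists, members called or, where none is, the 2 with the most counts. Genes outside this rule, such as Meis1, Ezh2 and the uncalled noncoding rows, were named after their values were seen. The members, lists and tests were chosen with earlier results of these data known. Coordinates and exon lengths are from GENCODE M21 (GRCm38, the assembly of mm10), which may differ from the authors' annotation. Figures used matplotlib 3.10.9.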

Additional observations from a re-analysis of the deposited data

How the results depend on the processing

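With 1 library left out at a time, between 814 and 1985 genes were higher and between 560 and 1380 lower in KO/KO, and between 3 and 7 Hox genes were higher and 0 lower; 4 and 3 Hox genes were higher when WT/WT replicate 1 or 2 was the library left out. Under the other alternatives both Hox counts stayed within 1.5 times the main count. Only genes that were never called changed sign, each when 1 library was left out: Hoxa7 ranged from -1.94 to 0.54 (0.46 without KO/KO replicate 1, 0.32 without KO/KO replicate 3), Hoxb1 from -1.26 to 0.14, Hoxb3 from -0.013 to 0.52, Hoxb6 from -0.41 to 0.61 and Hoxb8 from -0.11 to 0.86 on the log2 scale; the cause was not tested. With a replicate block, 7 Hox genes were higher, the same 7 genes, and 1467 genes were higher and 1107 lower in all; Pcgf2, Phc2, Phc3, Kmt2a and Cbx1 lost their calls. Same-numbered samples correlated by -0.13, 0.05 and 0.06 in their deviations from the group means, and samples of unlike number by -0.24 to 0.22. With 3 samples per genotype these values cannot tell whether the numbers pair the samples. The log2 ratios of the cluster sums kept their sign throughout, from -1.21 to -0.20 for Hoxa, 0.43 to 0.91 for Hoxb, 2.20 to 2.59 for Hoxc and 0.12 to 0.56 for Hoxd when a library was left out. None of the 18 untested Hox genes exceeded 43 counts over all libraries, and the cause of these low counts was not tested.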
